A study of Homo sapiens with 8 samples.

Results

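The genes described here were the 10 rows of the MP38 count table whose symbol was LINC followed by digits only and whose counts summed to at least 200 over the 8 libraries, of 38 such symbols and 35238 symbols in all. They were chosen by the summed count over all groups and by no comparison between groups, so that count is not a result. All 10 also passed the filter on low counts used for testing, and 9 of the 10 reached 50 counts over the 2 control libraries alone. The members nearest the threshold were LINC00672 with 210 summed counts and LINC01057 with 318, and the symbols just outside it were LINC01314 with 177 and LINC00888 with 172. Their counts per library, with the control pair first and then the romidepsin, quisinostat and mivebresib pairs, were 6, 10, 16, 13, 60, 56, 10 and 6 for LINC01314. For LINC00888 they were 18, 6, 21, 32, 33, 26, 20 and 16. Both lie outside the 10 described, but LINC01314 was raised by quisinostat in the same edgeR fit (log2 fold change 2.66, adjusted p = 0.000342). LINC00888 passed the test with no drug.

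The symbol LINC stands for long intergenic nonprotein-coding RNA, and the annotation went against that name for most of these genes. In RefSeq, 7 of the 10 were protein-coding genes under another symbol, 2 were lncRNAs and 1 was a transcribed pseudogene, so they are called LINC symbols here. The coding ones were LINC00094 (now BRD3OS), LINC00116 (MTLN), LINC00493 (SMIM26), LINC00672 (LASP1NB), LINC00998 (SMIM30), LINC01125 (C2orf92) and LINC01420 (NBDY). LINC00680 and LINC01057 (SLC44A3-AS1) were the lncRNAs, and LINC01296 (DUXAP9) was the pseudogene. GENCODE 29 types all 3 of these as transcribed pseudogenes. Among all 38 symbols, 23 were typed as protein-coding, 9 as lncRNA and 6 as transcribed pseudogene. GENCODE 29 types 1704 genes named LINC and digits as lincRNA, and 1 of these shared its name with a row of the count table, with 5 summed counts. The values below therefore describe renamed LINC symbols, and most lincRNAs were not analysed here.

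MP38 is a BAP1-mutant uveal melanoma (UM) cell line. Its cells were exposed for 24 h to 40 nM romidepsin, 40 nM quisinostat or 1200 nM mivebresib, each in 0.1% DMSO, or to 0.1% DMSO alone as the control, and polyadenylated RNA was sequenced in bulk from 2 wells per group. Romidepsin and quisinostat inhibit histone deacetylases (HDACs), and mivebresib blocks the bromodomains by which BET proteins bind acetylated histones. A single cell line was used, so p-values measure the spread between wells of this line, and in bulk RNA a change in the number of expressing cells cannot be told apart from a change in RNA per cell. Of 8 melanocytic marker genes, 7 exceeded 3 counts in every library (DCT, a late melanin-synthesis enzyme, did not). The summed level of the 8 was 4393 to 5611 CPM (counts scaled to library size) in the control and 5167 to 5479 with romidepsin. It was 4126 to 4743 CPM with quisinostat and 3584 to 3764 with mivebresib. The summed level of 6 fibroblast markers was 13.6 to 20.8 CPM in the control, 20.2 to 24.7 with romidepsin, 37.8 to 38.7 with quisinostat and 7.8 to 10.4 with mivebresib. That of 4 epithelial markers was 4.39 to 4.87, 7.5 to 8.85, 12.2 to 12.6 and 6.23 to 6.42 CPM in the same order. Immune and endothelial markers summed to under 1 CPM in each library, with CD3E and CDH5 at 0 throughout.

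Many RNAs were first catalogued as noncoding because their reading frames fell below the length that gene finders require, and some were later found to yield microproteins. Several of these sit in membranes: mitoregulin, the product of MTLN, is a small protein of the inner mitochondrial membrane that aids respiration and fatty acid oxidation, SMIM26 is a small mitochondrial membrane protein, and SMIM30 is a small integral membrane protein. NBDY encodes the NoBody microprotein, which binds the mRNA decapping complex and takes part in the turnover of P-bodies. Other LINC transcripts are true RNAs, some of them antisense to a coding gene, as SLC44A3-AS1 is to the choline transporter-like gene SLC44A3.

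The reading frames that set 6 of the coding LINC symbols apart from noncoding RNAs are short and are shown because they change what a change in these counts refers to. For each gene the longest complete GENCODE 29 reading frame of at most 300 bases is printed 5′ to 3′ with the start and stop codons in capitals, on GRCh38 (the SMIM26 frame is spliced, so its coordinates include an intron).
LINC00116 (MTLN), chr2:110212355-110212525, - strand: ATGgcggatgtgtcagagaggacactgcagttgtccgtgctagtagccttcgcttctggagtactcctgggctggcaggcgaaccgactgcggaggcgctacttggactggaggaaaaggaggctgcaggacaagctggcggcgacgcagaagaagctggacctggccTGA
LINC00493 (SMIM26), chr20:18567479-18569405, + strand: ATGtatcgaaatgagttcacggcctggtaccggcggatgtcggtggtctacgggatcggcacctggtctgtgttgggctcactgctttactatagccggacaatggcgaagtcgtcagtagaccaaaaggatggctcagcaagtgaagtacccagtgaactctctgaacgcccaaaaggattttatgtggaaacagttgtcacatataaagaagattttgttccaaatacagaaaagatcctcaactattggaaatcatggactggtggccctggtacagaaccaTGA
LINC00998 (SMIM30), chr7:113117399-113117578, - strand: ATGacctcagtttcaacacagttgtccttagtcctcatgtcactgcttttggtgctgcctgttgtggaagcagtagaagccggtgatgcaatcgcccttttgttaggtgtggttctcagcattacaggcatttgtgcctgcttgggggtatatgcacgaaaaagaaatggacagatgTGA
LINC01420 (NBDY), chrX:56729354-56729560, + strand: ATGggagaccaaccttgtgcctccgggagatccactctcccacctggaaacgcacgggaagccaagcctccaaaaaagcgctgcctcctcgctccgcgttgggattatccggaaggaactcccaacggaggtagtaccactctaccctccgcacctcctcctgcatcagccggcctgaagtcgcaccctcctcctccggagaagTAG
LINC00094 (BRD3OS), chr9:134026748-134027002, + strand: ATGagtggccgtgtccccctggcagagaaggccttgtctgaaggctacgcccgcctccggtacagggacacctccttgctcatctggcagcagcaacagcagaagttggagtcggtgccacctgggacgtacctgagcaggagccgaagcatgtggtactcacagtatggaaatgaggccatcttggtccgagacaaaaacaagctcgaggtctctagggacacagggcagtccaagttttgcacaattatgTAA
LINC00672 (LASP1NB), chr17:38925694-38925771, + strand: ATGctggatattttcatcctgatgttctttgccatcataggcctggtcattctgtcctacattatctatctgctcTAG
These frames encode 56 residues for MTLN, 95 for SMIM26, 59 for SMIM30, 68 for NBDY, 84 for BRD3OS and 25 for LASP1NB. The annotation also holds a longer frame of 125 residues for BRD3OS and of 138 for MTLN. C2orf92 has 7 complete frames of 38 to 265 residues, of which none is printed.

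In the control cells the LINC symbols differed widely in level. Divided by the kilobases of the longest annotated transcript, the level of LINC00998 (SMIM30) was highest at 48.4 and 34.6 CPM per kb in control libraries 1 and 2, followed by LINC00493 (SMIM26) at 41.3 and 29.6, and the libraries of these neighbours overlapped. LINC01296 (DUXAP9) followed at 20.2 and 19.8 CPM per kb. LINC00116 (MTLN) at 11.2 and 6.94 and LINC01420 (NBDY) at 10.2 and 5.99 CPM per kb overlapped each other and lay below the pseudogene. LINC00094 (BRD3OS) had 2.92 and 2.17 CPM per kb, above LINC01125 (C2orf92) at 2.06 and 1.97 and LINC00680 at 2.03 and 1.81, which overlapped. The lowest levels were those of LINC00672 (LASP1NB) at 0.269 and 0.188 and LINC01057 (SLC44A3-AS1) at 0.178 and 0.166 CPM per kb. By this length the small membrane protein genes SMIM30 and SMIM26 were thus the most abundant LINC symbols, and the antisense RNA the least. The order depends on the transcript taken. For MTLN the longest has 2051 bases, but the transcript that holds the frame printed above has 441. Which transcripts the cells made was not tested.

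**Figure D1:**
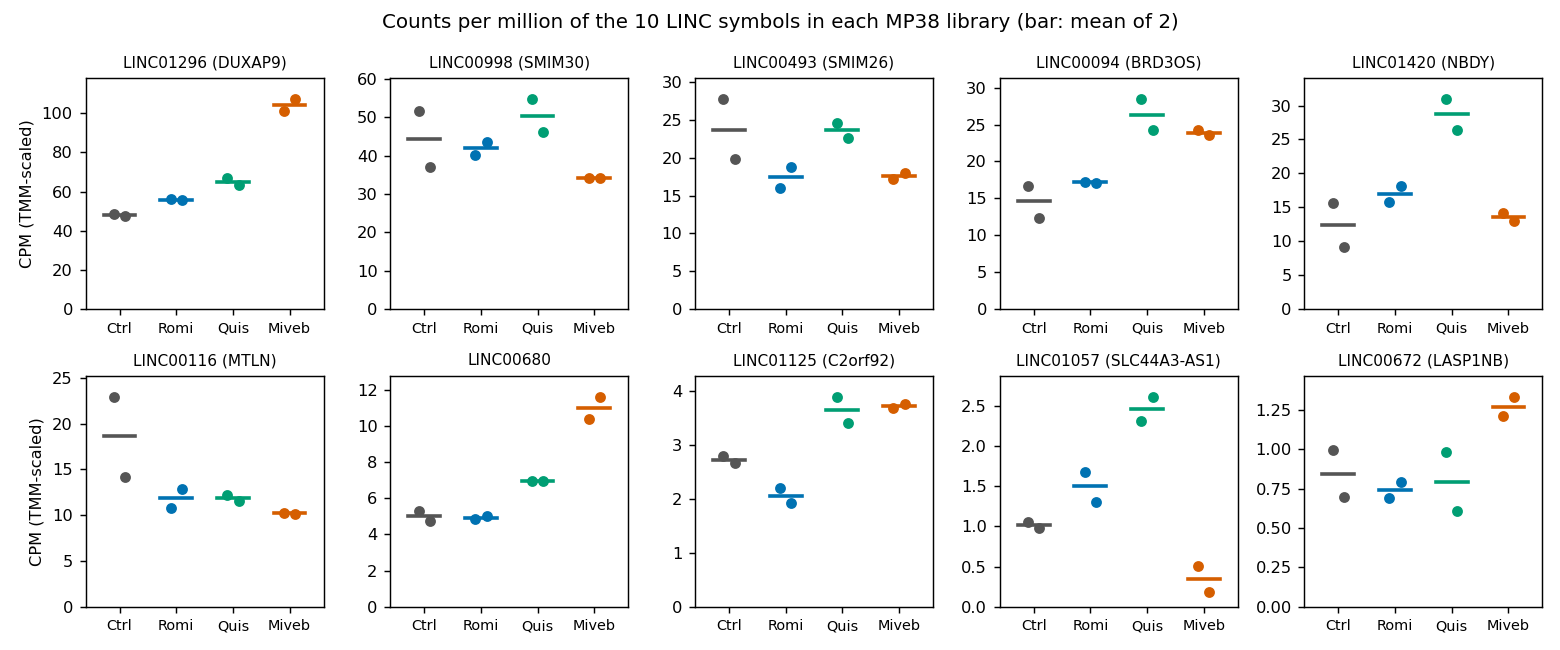
Level of each LINC symbol in CPM, scaled by TMM library size (vertical axes start at 0 and differ between panels), in the 2 libraries of each group (points) with their mean (bar). LINC01296 rose from 48.0 CPM in the control to 104.0 CPM with mivebresib, whereas LINC01057 fell to 0.346 CPM with mivebresib and stood at 2.46 CPM with quisinostat.

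Depth was even, from 28483235 to 29359024 counts per library, but the control pair was the least alike, with a chi-square per degree of freedom of 58.1 against 9.52 to 9.79 in the drug pairs. Over all genes tested, the median of this difference followed transcript length. The median log2 ratio of control 1 over control 2 was 0.43 for the 465 tested genes with a longest transcript of at most 1000 bases, 0.24 for those of 1000 to 2000 bases and -0.22 for those over 8000 bases. The LINC symbols were all higher in control 1, by 0.77 for LINC01420, 0.69 for LINC00116, 0.52 for LINC00672, 0.48 for LINC00493 and LINC00998 and 0.43 for LINC00094 on the log2 scale. The ratio was 0.16 or less for LINC00680, LINC01057, LINC01125 and LINC01296. These ratios did not all track length. LINC00094 (5722 bases) lay above the median of -0.08 in its length bin, and LINC00672 (3692) and LINC00116 (2051) above 0.05 in theirs. LINC01125 (1356 bases) and LINC01296 lay below the medians of their bins, and the other LINC symbols above. In the drug comparisons, the median log2 FC ran from -0.26 in the shortest bin to 0.12 in the longest with romidepsin, from -0.15 to 0.05 with quisinostat and from -0.13 to 0.05 with mivebresib. The part of this length pattern in the results of single LINC symbols was not tested, and values without a control library are given where they changed a call.

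**Figure D2:**
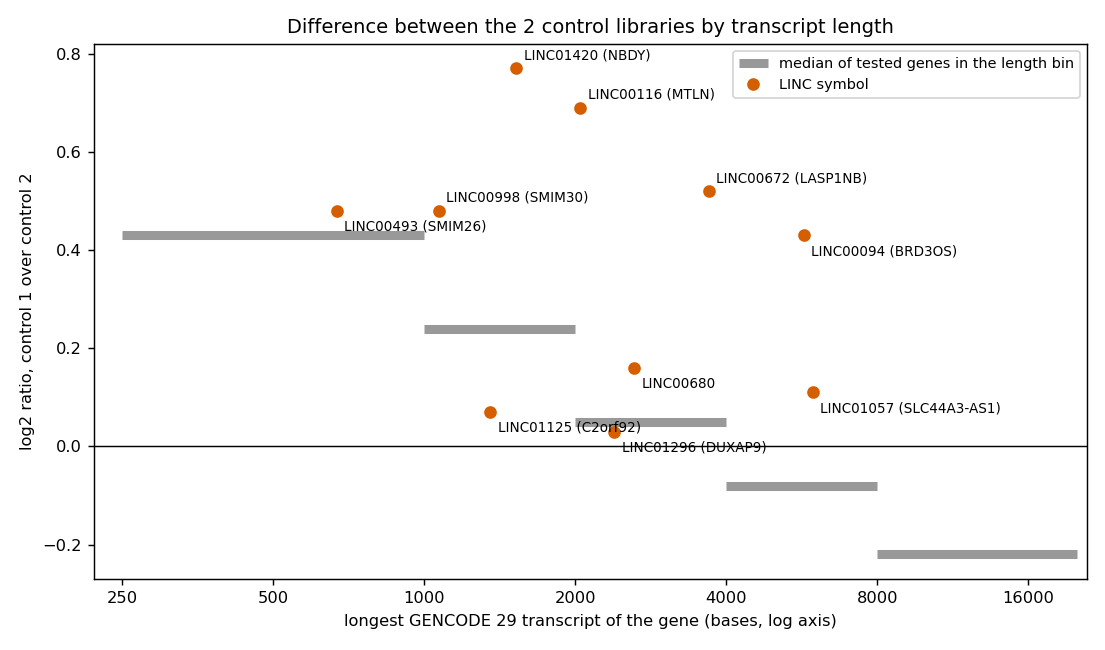
Log2 ratio of control library 1 over control library 2 (vertical axis) against the longest annotated transcript in bases (log axis), for the 10 LINC symbols (points) and as the median of tested genes in each length bin (bars, the first covering all lengths up to 1000 and the last all above 8000). Medians fell from 0.43 in the shortest bin to -0.22 in the longest, and LINC01420 and LINC00116 lay at 0.77 and 0.69.

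The first question was which LINC symbols each drug raised or lowered. At the thresholds of the study, an adjusted p below 0.05 and a log2 fold change (FC) beyond 1.5, a single LINC symbol was called in any drug: LINC01057, lowered by mivebresib. None of the 10 was raised by romidepsin (3.77% of the 15085 genes tested were), by quisinostat (11.2%) or by mivebresib (3.96%), and none was lowered by romidepsin (0.312%) or quisinostat (1.03%), whereas 1 of 10 was lowered by mivebresib (4.36%). These counts came from edgeR. DESeq2 and limma-voom gave the same counts. At an unadjusted p below 0.05 with no fold threshold, 1, 6 and 4 LINC symbols were higher with romidepsin, quisinostat and mivebresib and 3, 1 and 4 were lower. The shares of all genes tested at that unadjusted p were not computed, so these last counts cannot be set against them.

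By the adjusted p alone, quisinostat raised 5 of 10 (28% of all genes tested) and lowered 1 of 10 (25.1%). Mivebresib raised 3 of 10 (22.2%) and lowered 3 of 10 (24.1%). Romidepsin raised none (15.2%) and lowered 1 of 10 (15.8%), and DESeq2 and limma-voom also gave no raised symbol for it. The genes raised by quisinostat were LINC00094, LINC00680, LINC01057, LINC01296 and LINC01420, those raised by mivebresib were LINC00094, LINC00680 and LINC01296, and LINC00116 was lowered by all 3 drugs, which share their control libraries. The median log2 FC of the 10 was -0.06 with romidepsin, 0.43 with quisinostat and 0.29 with mivebresib, beside -0.01, 0.00 and 0.01 over all genes tested. Only LINC00672 lay below an average log2 CPM of 0, and of the 9 others 5 rose and 1 fell with quisinostat, against 26.5% and 28.8% of the 12945 tested genes at or above that level. Both drug libraries lay above both controls for 31.2%, 38.4% and 35.4% of all genes tested with romidepsin, quisinostat and mivebresib. Both lay below for 32.5%, 35.8% and 34.3%. Of the 10 LINC symbols, 4, 6 and 5 lay above and 3, 1 and 4 below. Separation from the controls, given below for single symbols, was thus common among all genes.

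**Figure D3:**
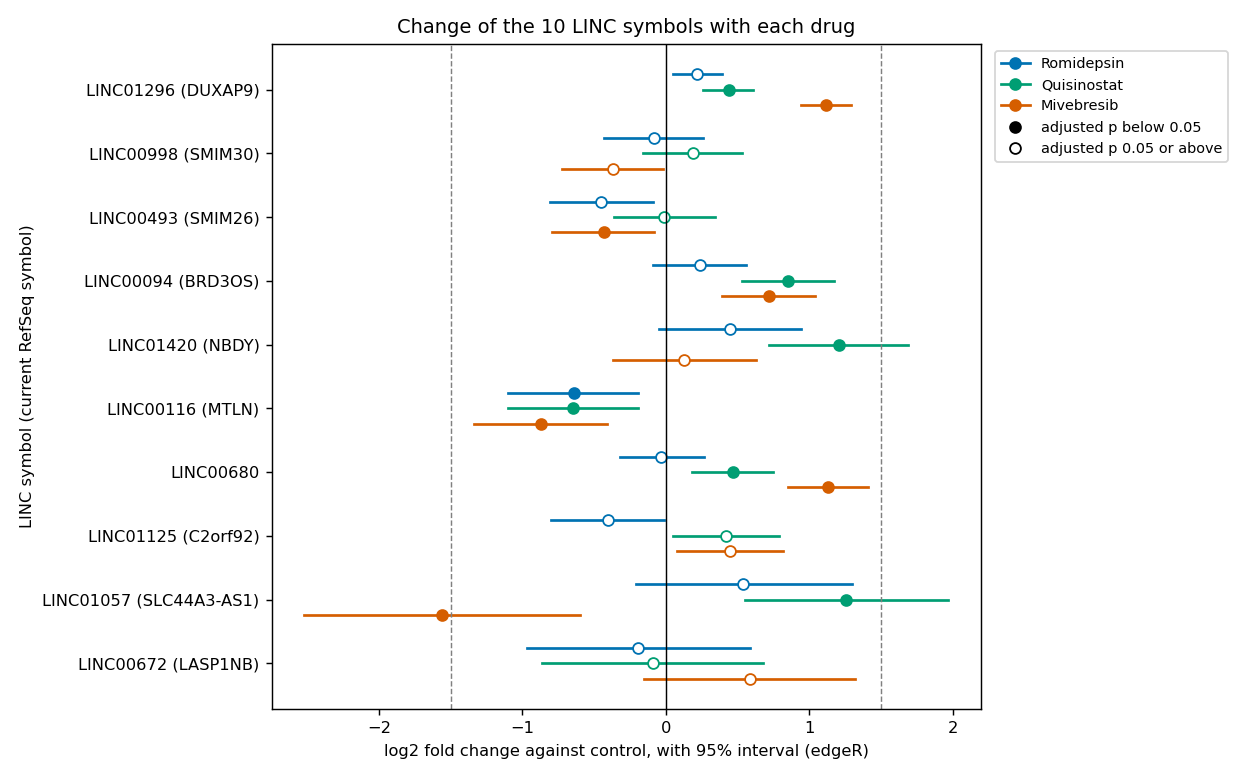
Log2 FC against control (horizontal axis) of each LINC symbol with romidepsin, quisinostat and mivebresib from edgeR, with 95% intervals (lines), filled points for an adjusted p below 0.05 and dashed lines at the fold threshold of 1.5. LINC01057 with mivebresib, at -1.56, is the only point beyond a dashed line, and its interval runs from -2.52 to -0.60.

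Of the mitochondrial microprotein genes, LINC00116 (MTLN, chromosome 2) fell with every drug. It had 647 and 390 counts in the control libraries, 316 and 376 with romidepsin, 385 and 364 with quisinostat and 278 and 282 with mivebresib. All drug libraries lay below both control libraries, and the controls were the widest pair. Its log2 FC was -0.64 ± 0.20 (SE) with romidepsin (adjusted p = 0.0407), -0.65 ± 0.20 with quisinostat (adjusted p = 0.0242) and -0.87 ± 0.20 with mivebresib (adjusted p = 0.00795). Without control 1 the values became -0.24 (adjusted p = 0.21), -0.26 (adjusted p = 0.112) and -0.49 (adjusted p = 0.0113), so that only the mivebresib call remained, and without control 2 they were -0.95, -0.95 and -1.18. Over 16 alternatives the romidepsin call held in 6, the quisinostat call in 11 and the mivebresib call in 15, being lost without mivebresib replicate 2 (-0.87, adjusted p = 0.0524).

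LINC00493 (SMIM26, chromosome 20) passed the test with mivebresib by a small margin. It had 781 and 543 counts in the control, 465 and 547 with romidepsin, 777 and 711 with quisinostat and 470 and 500 with mivebresib. The romidepsin and mivebresib libraries were below both controls once scaled, and the quisinostat libraries lay between them. The log2 FC was -0.43 ± 0.16 with mivebresib (adjusted p = 0.0497), -0.45 ± 0.16 with romidepsin (adjusted p = 0.0587) and -0.01 ± 0.15 with quisinostat (adjusted p = 0.968). The mivebresib call held in 2 of 16 alternatives, and those that lost it included limma-voom and the fit without control 1, where the log2 FC was -0.17 (adjusted p = 0.263). Without control 2 it was -0.66 with mivebresib (adjusted p = 0.000758) and -0.67 with romidepsin (adjusted p = 0.00112), and without control 1 it was -0.17 with romidepsin (adjusted p = 0.332), so the control library kept decided the size of both. The median log2 FC of all genes with a longest transcript of at most 1000 bases, among which LINC00493 falls with 670 bases, was -0.13 with mivebresib and -0.26 with romidepsin. Of its 31-base words, 10.5% occurred also in the overlapping gene AL121900.2, whose name was not a row of the count table.

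LINC00998 (SMIM30, chromosome 7), the most abundant in the control per kb of the longest transcript, did not pass the test with any drug. Its counts were 1461 and 1015 in the control, 1169 and 1267 with romidepsin, 1729 and 1454 with quisinostat and 939 and 954 with mivebresib. The mivebresib libraries were the lowest of the 8. The control pair overlapped the romidepsin and quisinostat pairs, which did not overlap each other. Its log2 FC was -0.08 ± 0.15 with romidepsin, 0.19 ± 0.15 with quisinostat and -0.37 ± 0.15 with mivebresib (adjusted p = 0.699, 0.326 and 0.0766). Which control library was kept decided these values: without control 1 it rose with quisinostat (0.44, adjusted p = 0.00515) and was -0.11 with mivebresib, and without control 2 it fell with mivebresib (-0.60, adjusted p = 0.000907) and romidepsin (-0.31, adjusted p = 0.0402). Quisinostat and mivebresib, compared directly, differed by 0.56 on the log2 scale (mivebresib minus quisinostat -0.56, 95% interval -0.90 to -0.21, adjusted p = 0.0127).

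LINC01420 (NBDY, chromosome X) rose with quisinostat. It had 442 and 251 counts in the control, 460 and 526 with romidepsin, 978 and 831 with quisinostat and 388 and 361 with mivebresib. Both quisinostat libraries lay above every other library, while the mivebresib libraries lay between the controls. The log2 FC was 1.21 ± 0.21 with quisinostat (adjusted p = 0.00162), 0.45 ± 0.22 with romidepsin (adjusted p = 0.147) and 0.13 ± 0.22 with mivebresib (adjusted p = 0.661). The quisinostat rise passed the test in all 16 alternatives, at 0.87 to 1.64. Without control 1 the gene also rose with romidepsin (0.91, adjusted p = 0.00098) and mivebresib (0.57, adjusted p = 0.0083), and without control 2 its log2 FC with mivebresib was -0.21. NBDY overlaps SPIN3, a spindlin family gene on the opposite strand. SPIN3 rose with mivebresib (1.27 ± 0.12, adjusted p = 7.1e-05) and with quisinostat (0.58 ± 0.12, adjusted p = 0.00402), so the drug with the larger change differed between the overlapping genes.

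LINC00094 (BRD3OS, chromosome 9) overlaps BRD3 on the opposite strand, and BRD3 is itself one of the BET proteins that mivebresib binds. LINC00094 had 472 and 340 counts in the control, 500 and 498 with romidepsin, 898 and 759 with quisinostat and 664 and 656 with mivebresib. The quisinostat and mivebresib libraries were all above the control and romidepsin libraries. It rose by 0.85 ± 0.14 with quisinostat (adjusted p = 0.00118) and by 0.72 ± 0.14 with mivebresib (adjusted p = 0.00365) on the log2 scale, and both calls held in all 16 alternatives, at 0.65 to 1.08 and 0.51 to 0.95. With romidepsin it was 0.24 ± 0.14 (adjusted p = 0.244), and 0.49 (adjusted p = 0.0122) without control 1. BRD3 had 680 and 731 control counts and was -0.24 ± 0.10 with quisinostat (adjusted p = 0.0642), fell with romidepsin (-0.31 ± 0.10, adjusted p = 0.0389) and rose with mivebresib (0.28 ± 0.10, adjusted p = 0.0393). Because the strand setting of the counting is not given in the sources used here, reads from overlapping genes may not have been told apart.

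The largest rises with mivebresib among the 10 were those of LINC00680 on chromosome 6 and LINC01296 (DUXAP9, a pseudogene of the DUXA homeobox gene) on chromosome 14, neither of them a coding gene. LINC01296 had 1370 and 1298 counts in the control, 1632 and 1612 with romidepsin, 2107 and 1981 with quisinostat and 2769 and 2967 with mivebresib. The 4 groups did not overlap. It rose by 1.12 ± 0.08 on the log2 scale with mivebresib (adjusted p = 1.4e-05) and by 0.44 ± 0.07 with quisinostat (adjusted p = 0.00142), both in all 16 alternatives, and was 0.22 ± 0.07 with romidepsin (adjusted p = 0.0572). The romidepsin value passed the test in 4 of 16 alternatives, at 0.26 without control 1 (adjusted p = 0.0451), 0.23 with RLE size factors (adjusted p = 0.043), 0.29 with library size alone (adjusted p = 0.0262) and 0.24 with a mean CPM of at least 1 (adjusted p = 0.0362). Its sequence is not its own: 79.3% of its 31-base words occur in other genes and 77.2% in DUXAP10, whose name was not a row of the table, so these counts are uncertain as to which copy they come from.

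LINC00680 had 150 and 130 counts in the control, 141 and 146 with romidepsin, 220 and 218 with quisinostat and 285 and 323 with mivebresib. The romidepsin libraries lay within the range of the controls, and the quisinostat and mivebresib libraries formed successive steps above. It rose by 1.13 ± 0.12 with mivebresib (adjusted p = 0.000144, in all 16 alternatives) and by 0.47 ± 0.12 with quisinostat (adjusted p = 0.0129, in 12 of 16, the others being DESeq2 and the fits without control 2, at 0.38 and an adjusted p of 0.0574, or without either quisinostat library). With romidepsin the log2 FC was -0.03 ± 0.13 (adjusted p = 0.885). Of its 31-base words, 16.4% are shared with GUSBP1, a pseudogene of the glucuronidase gene GUSB, which had 227 and 179 control counts and 302 and 384 with mivebresib. GUSBP1 also rose with mivebresib (0.77 ± 0.17, adjusted p = 0.00667) and quisinostat (0.54 ± 0.17, adjusted p = 0.028), and how the counting divided shared reads is not given in the sources used here.

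LINC01057 (SLC44A3-AS1, chromosome 1) was raised by quisinostat and lowered by mivebresib. It had 30 and 27 counts in the control, 49 and 38 with romidepsin, 73 and 82 with quisinostat and 14 and 5 with mivebresib. No 2 groups overlapped, but the counts were the second lowest of the LINC symbols. It rose with quisinostat (1.26 ± 0.31, adjusted p = 0.00905), was 0.54 ± 0.33 with romidepsin (adjusted p = 0.241) and fell with mivebresib (-1.56 ± 0.42, adjusted p = 0.0154). The fall rested on the mivebresib library with 5 counts: without mivebresib replicate 2 the log2 FC was -1.0 (adjusted p = 0.0791), and without replicate 1 it was -2.49 (adjusted p = 0.00683). The quisinostat call was lost without quisinostat replicate 2 (1.16, adjusted p = 0.0648).

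The gene on the other strand of LINC01057 changed in the same direction with each drug, but with romidepsin LINC01057 itself did not pass the test. SLC44A3 had 43 and 54 counts in the control, 91 and 98 with romidepsin, 104 and 99 with quisinostat and 24 and 26 with mivebresib. It rose by 0.89 ± 0.19 with romidepsin (adjusted p = 0.00897) and 0.88 ± 0.19 with quisinostat (adjusted p = 0.0046) and fell with mivebresib (-0.94 ± 0.23, adjusted p = 0.00927). The library kit kept strand, but without a stated strand setting of the counting, reads of SLC44A3 and of its antisense RNA may not have been told apart.

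LINC01125 and LINC00672 did not pass the test with any drug. LINC01125 (C2orf92, chromosome 2) had 79 and 73 counts in the control, 64 and 56 with romidepsin, 123 and 107 with quisinostat and 101 and 105 with mivebresib. The romidepsin libraries were the lowest and those of the other drugs the highest, with log2 FC of -0.40 ± 0.17, 0.42 ± 0.16 and 0.45 ± 0.16 (adjusted p = 0.11, 0.0577 and 0.0512). Its start lies 110 bp from that of ACTR1B, which encodes a dynactin subunit and is read from the opposite strand, and ACTR1B was at -0.24, -0.01 and 0.27, without passing the test. LINC00672 (LASP1NB, chromosome 17) had 28 and 19 counts in the control, 20 and 23 with romidepsin, 31 and 19 with quisinostat and 33 and 37 with mivebresib. At this depth the intervals were wide, -0.97 to 0.59 with romidepsin, -0.86 to 0.68 with quisinostat and -0.15 to 1.32 with mivebresib, and no difference was detectable. LASP1, the actin-binding protein gene 3398 bp away on the same strand, fell by 0.74 on the log2 scale with both quisinostat and mivebresib (adjusted p = 0.00016 and 0.000188).

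The HDAC inhibitors were given at the same dose and time and were compared directly. The paper found romidepsin more potent than quisinostat in reducing the viability of MP38 cells, so the same dose need not give the same inhibition. Romidepsin is a cyclic depsipeptide and quisinostat a hydroxamate. None of the 10 LINC symbols was higher (5.41% of all genes tested) or lower (0.179%) with quisinostat than with romidepsin beyond a log2 difference of 1.5 in edgeR, DESeq2 or limma-voom. By the adjusted p alone 4 of 10 were higher (21%) and none was lower (14.6%). At an unadjusted p below 0.05 7 were higher and none lower, without a share over all genes tested to set beside these counts. The differences were 0.82 for LINC01125 (95% interval 0.44 to 1.20, adjusted p = 0.00604), 0.76 for LINC01420 (0.29 to 1.23, adjusted p = 0.0216), 0.62 for LINC00094 (0.30 to 0.93, adjusted p = 0.00989) and 0.49 for LINC00680 (0.21 to 0.78, adjusted p = 0.0155). LINC01296 was at 0.22 (0.05 to 0.39, adjusted p = 0.05 when rounded) and LINC01057 at 0.72 (0.04 to 1.39, adjusted p = 0.0925), neither passing the test. LINC00116 differed by 0.00 with an interval of -0.47 to 0.46, which leaves room for a difference of that size in either direction. The count of 4 became 1 without romidepsin replicate 1, 0 without romidepsin replicate 2, 0 and 2 without quisinostat replicates 1 and 2, and 7 without either control library.

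**Figure D4:**
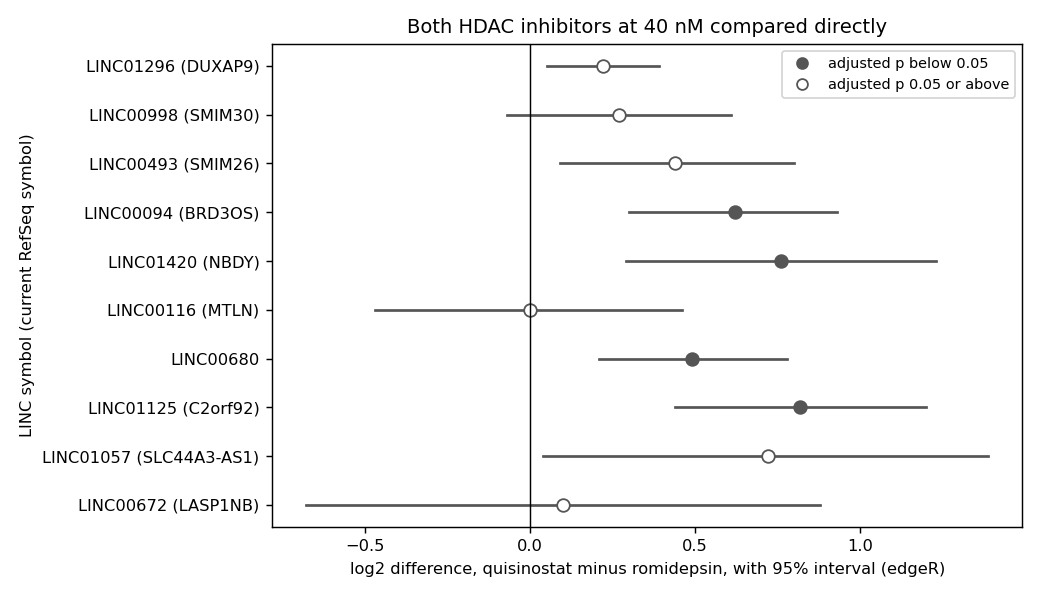
Log2 difference between quisinostat and romidepsin at 40 nM (horizontal axis) for each LINC symbol from edgeR, with 95% intervals (lines) and filled points for an adjusted p below 0.05. The filled points are LINC00094, LINC00680, LINC01125 and LINC01420, at 0.49 to 0.82.

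A LINC symbol was called specific to a drug where it changed against control and also differed in the same direction from each of the other drugs at an adjusted p below 0.05. With the fold threshold of 1.5 against control, none was specific to romidepsin (0.133% of genes tested) or quisinostat (7.93%) in edgeR, DESeq2 or limma-voom, and LINC01057 was specific to mivebresib (1 of 10, 5.04%). It was lower with mivebresib than with romidepsin by a log2 difference of -2.10 (95% interval -3.01 to -1.20, adjusted p = 0.00258) and than with quisinostat by -2.82 (-3.68 to -1.96, adjusted p = 0.000292). By the adjusted p alone, none was specific to romidepsin (3.02%), 1 of 10 to quisinostat (20%) and 3 of 10 to mivebresib (23%). The quisinostat-specific symbol was LINC01420, with a log2 difference of mivebresib minus quisinostat of -1.08 (-1.56 to -0.60, adjusted p = 0.00241). LINC01057, LINC00680 and LINC01296 were the mivebresib-specific ones, of which the last 2 were higher with mivebresib than with quisinostat by 0.66 (0.40 to 0.93, adjusted p = 0.0014) and 0.68 (0.51 to 0.85, adjusted p = 9.5e-05). LINC00094 differed between mivebresib and quisinostat by -0.14, with an interval of -0.45 to 0.18. The specificity of LINC01420 was lost without any 1 of the romidepsin and quisinostat libraries.

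Lists of named RNAs overlapped little with the rows of the table. Of 8 LINC symbols known to encode a microprotein 5 were rows of the table and 4 were among the 10. Of these, LINC01420 rose with quisinostat and LINC00998 did not pass the test with any drug. LINC00116 fell with every drug in the reported fit, but in only 6 of 16 alternatives with romidepsin and 11 with quisinostat. LINC00493 fell with mivebresib in the reported fit but in only 2 of 16 alternatives. The fifth, LINC00961, had 48 summed counts. Of 30 LINC symbols known from the literature only LINC00094 was a row. Of 49 other genes listed by name as long noncoding RNAs, only TINCR was a row, and its annotated type is not given here. TINCR rose with romidepsin (0.44 ± 0.09, adjusted p = 0.00686), quisinostat (0.97 ± 0.09, adjusted p = 4.3e-05) and mivebresib (0.77 ± 0.09, adjusted p = 0.000197).

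Promoter windows, from 250 bases before to 50 after a RefSeq start on GRCh38.p14, were used for 6 of the 7 coding LINC symbols. The window listed for LINC01125 lies inside the gene, downstream of its annotated start, and is not described. LINC00094, which rose with quisinostat and mivebresib, and LINC00116 are shown 5′ to 3′ with matched motif letters in capitals. LINC00116 fell with every drug in the reported fit, though not in all alternatives.
LINC00094 (BRD3OS), chr9:134025231-134025530, + strand: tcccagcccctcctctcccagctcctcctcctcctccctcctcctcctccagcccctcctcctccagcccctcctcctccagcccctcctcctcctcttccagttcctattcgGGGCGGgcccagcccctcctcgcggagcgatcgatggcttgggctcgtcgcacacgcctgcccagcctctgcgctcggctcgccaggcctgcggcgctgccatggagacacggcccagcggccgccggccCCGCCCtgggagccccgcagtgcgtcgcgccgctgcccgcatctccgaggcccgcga
LINC00116 (MTLN), chr2:110212498-110212797, - strand: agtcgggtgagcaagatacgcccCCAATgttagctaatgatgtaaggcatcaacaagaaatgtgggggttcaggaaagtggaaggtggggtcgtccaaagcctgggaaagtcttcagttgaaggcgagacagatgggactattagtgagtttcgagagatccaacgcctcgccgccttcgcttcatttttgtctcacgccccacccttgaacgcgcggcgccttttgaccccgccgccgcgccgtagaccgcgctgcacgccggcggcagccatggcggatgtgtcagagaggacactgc
The motifs searched on both strands were the TATA box (TATAAA), the CCAAT box, the GC box (GGGCGG), an E-box (CACGTG), a form of the melanocyte M-box (TCATGTG), the cAMP response element (TGACGTCA) and the AP-1 element (TGANTCA). The LINC00094 window held 2 matches of GGGCGG, which 45% of all 35116 windows of the same length hold, and the LINC00116 window held 1 of CCAAT, which 34.6% hold. Among the others, LINC00493 held CACGTG (7.26% of all windows), LINC00672 held 2 matches of CCAAT on the reverse strand, and LINC00998 held 1 GGGCGG and an overlapping pair of TATAAA matches on opposite strands (11.5%). LINC01420 held none of these letters, and the M-box form, the cAMP response element and the AP-1 element were in none of the 6 windows, against 2.92%, 1.85% and 7.71% of all windows. The number of CpG dinucleotides ran from 4 in the LINC00672 window to 28 in that of LINC00094, beside a median of 14 in all windows.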

How the data were processed

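Polyadenylated RNA of MP38 cells was sequenced by the study with a strand-keeping library. The authors deposited counts per gene symbol without normalization, made with BioJupies, for 8 libraries. The labels name hg38. The aligner, annotation and strand setting of the counting are not given in the sources used here. Tables of transformed values of the same libraries were not used here.

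LINC symbols were matched to RefSeq (GRCh38.p14) and GENCODE 29. A single edgeR model (version 4.0.16, R 4.3.3) of the 8 libraries gave quasi-likelihood tests, with TMM factors, low counts removed by filterByExpr, a common biological coefficient of variation of 0.0938 and Benjamini-Hochberg adjustment over 15085 genes. Calls needed an adjusted p below 0.05 and, where stated, a log2 FC beyond 1.5. Printed CPM are per TMM-scaled library size. Intervals of 95% use the fit's degrees of freedom. The model was also run on counts simulated from the mean levels and fitted spread of these data, with planted changes. This run checked the code and, being drawn from the same fit, could not test the calls. Alternatives comprised limma-voom (limma 3.58.1), DESeq2 1.42.0, other scalings and filters, only the 4 libraries compared, a replicate block, other thresholds and each library left out. The same alternatives for the counts by adjusted p alone, and the transcript-length check, were added after the data were seen. Genes were named by level, call, specificity, list and closeness to the threshold, which together took in every LINC symbol. The members, lists and rules were chosen with earlier results of these data known. Python 3.11.15 was used for tables and figures.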

Additional observations from a re-analysis of the deposited data

How the results depend on the processing

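Of 477 refits of single drug effects, 411 kept their direction and side of the threshold, 36 lost and 16 gained the adjusted p, and 14 changed sign, all of the last in effects that had not passed the test. Against TMM, scaling by library size alone shifted the median of all genes by 0.20 (log2) for quisinostat against control, and gave signs opposite to those reported for LINC00680 with romidepsin (0.04), LINC00493 with quisinostat (0.19, also 0.01 with limma-voom and 0.04 with a mean CPM of at least 1) and LINC00672 with quisinostat (0.11). Leaving out 1 library moved LINC00672 from -0.42 to 0.11, LINC00680 from -0.11 to 0.08 and LINC00998 from -0.31 to 0.20 with romidepsin, LINC00493 from -0.24 to 0.25, LINC00672 from -0.47 to 0.21 and LINC00998 from -0.04 to 0.44 with quisinostat, and LINC01420 from -0.21 to 0.57 with mivebresib. In these fits the lone sample is assumed to vary like the other groups.

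Beyond the fold threshold of 1.5, leaving out a library gave 0 to 1 symbols raised by quisinostat, lowered by mivebresib or specific to either. A member threshold of 100 summed counts gave 1 raised by quisinostat, 1 raised by mivebresib, 1 specific to quisinostat, 2 specific to mivebresib and 1 higher with quisinostat than romidepsin. The added symbols were LINC01314 for quisinostat and LINC00959 for mivebresib (log2 FC 1.56 in edgeR, adjusted p = 0.00738). A threshold of 500 gave 0 lowered by and 0 specific to mivebresib. A fold threshold of 1 gave 2 raised by quisinostat, 2 raised by mivebresib, 1 specific to quisinostat and 3 specific to mivebresib. The shares of all genes tested at that fold threshold, or with a library left out, were not computed, so such counts cannot be set against them. No fold threshold gave 1 lowered by romidepsin, 5 raised and 1 lowered by quisinostat, 3 raised and 3 lowered by mivebresib, 1 and 3 specific to these drugs and 4 higher with quisinostat than romidepsin.

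By the adjusted p alone, RLE size factors, library size alone and a mean CPM of at least 1 each gave 1 raised by romidepsin. Limma-voom, library size alone and only the 4 libraries compared gave 0 lowered by romidepsin, and the last 2 gave 0 lowered by quisinostat. Only the 4 libraries compared gave 7 higher with quisinostat than romidepsin, and a member threshold of 100 gave 2 specific to quisinostat. Leaving out a library gave 0 to 3 raised and 0 to 3 lowered by romidepsin, 3 to 6 raised and 0 to 1 lowered by quisinostat, 3 to 4 raised and 0 to 4 lowered by mivebresib, 0 to 2 specific to quisinostat, 2 to 4 specific to mivebresib and 0 to 7 higher with quisinostat than romidepsin. The 0 lowered by mivebresib came without mivebresib replicate 2.

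Replicate numbers share no stated source, and deviations of same-numbered libraries correlated at -0.162 to 0.158 over genes. With the replicate block, the counts by the adjusted p alone were 0 raised and 1 lowered by romidepsin, 5 and 1 by quisinostat and 3 and 2 by mivebresib, and the count beyond the fold threshold lowered by mivebresib was 1. With 2 libraries per group, low counts limit LINC00672 and LINC01057 most.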
